A study of Homo sapiens with 16 samples.

Results

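The genes described here are the ATP-binding cassette (ABC) genes of 2 ovarian carcinoma cell lines, OVCAR3 and UWB1.289, kept with the PARP inhibitor olaparib or with its solvent DMSO. Members were taken by symbol, as the letters ABC with a subfamily letter from A to G and a number. Of 46 such symbols, ABCC13 was left out because it is annotated as a pseudogene, and 45 of the 59428 genes in the count table remained. They comprise 12 ABCA, 9 ABCB, 11 ABCC, 4 ABCD, 1 ABCE, 3 ABCF and 5 ABCG genes. CFTR, TAP1 and TAP2 belong to the same family under other symbols and were followed as a separate list.

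ABC transporters are membrane proteins that use the hydrolysis of ATP to move a substrate across a membrane, in human cells mostly outward or into an organelle. ABCB1 (P-glycoprotein) and ABCG2 (BCRP) pump many unrelated drugs out of cells, and olaparib is a known ABCB1 substrate. Several ABCC proteins export glutathione and glucuronide conjugates, ABCA and ABCG proteins carry lipids, ABCD proteins serve peroxisomes or lysosomes, and ABCE and ABCF proteins have no membrane part and act on ribosomes. In ovarian cancer the family is best known for resistance to taxanes and to PARP inhibitors through raised ABCB1.

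OVCAR3 cells carry wild type BRCA1 and UWB1.289 cells a BRCA1 mutation, and each state of BRCA1 is represented by a single line. OVCAR3 received olaparib at 7.5 µM in RPMI1640 with serum and insulin, UWB1.289 at 3.5 µM in a mixture of MEGM and RPMI with less serum, each dose being that line's own half-maximal inhibitory concentration, and both were harvested after 96 h. Each of the 4 groups (OVCAR3 DMSO, OVCAR3 Olaparib, UWB1.289 DMSO and UWB1.289 Olaparib) holds 4 replicates, 16 libraries in all, and the labels do not say whether they came from separate cultures. Effects of the line itself, its BRCA1 state, its medium and the dose it received cannot be told apart. In bulk RNA, fewer cells of a type and less RNA per cell cannot be told apart either. RNA was read from transcript 3' ends with the QuantSeq method, which gives about the same number of reads to a long and a short transcript, so levels of different genes can be set side by side without dividing by length.

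Total counts lay between 5599571 and 7730228 per library, and none of the 24 pairs of libraries within groups was identical. Levels are given in CPM, the usual unit of read count relative to library size, with sizes scaled by TMM. Of 8 markers of serous ovarian carcinoma, 8 reached 1 CPM in OVCAR3 with DMSO and 7 in UWB1.289, where WT1 had 0 counts in every DMSO library. UWB1.289 with DMSO also held the leukocyte gene PTPRC at 6.13 ± 1.05 CPM (SD, n = 4) and the endothelial genes PECAM1 at 3.35 ± 0.899 CPM and CDH5 at 3.80 ± 1.87 CPM, which were at 3 counts or fewer in every OVCAR3 DMSO library, while CD3E was at 0 in UWB1.289 with DMSO. These were the only ones of 4 leukocyte and 3 endothelial markers to reach 1 CPM there. The endothelial gene VWF went the other way, at 0.88 CPM in OVCAR3 with DMSO and at 3 counts or fewer in every UWB1.289 DMSO library. The summed leukocyte markers were 5.659 to 8.597 CPM with DMSO and 6.04 to 13.6 CPM with olaparib in UWB1.289, and their part in the results was not tested.

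To see which transporters each line carried, a gene was called expressed at a mean of at least 1 CPM over the 4 libraries of a group, and at the floor when no library of the group had more than 3 counts. With DMSO, 24 of the 45 members were expressed in OVCAR3 and 22 in UWB1.289, and all 22 were expressed in both. ABCB5 and ABCG1 were the 2 members expressed in OVCAR3 and not in UWB1.289. In OVCAR3 5 further members were between these limits and 16 were at the floor, and in UWB1.289 these numbers were 6 and 17. The 11 members at the floor in all 4 groups were ABCA6, ABCA8, ABCA9, ABCB11, ABCC8, ABCC9, ABCC11, ABCC12, ABCD2, ABCG5 and ABCG8, of which ABCA9, ABCC12 and ABCG5 had no count in any library. Among them are the bile salt pump ABCB11, the sterol exporters ABCG5 and ABCG8, and ABCC8 and ABCC9, the sulfonylurea receptor subunits of ATP-sensitive potassium channels.

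**Figure D1:**
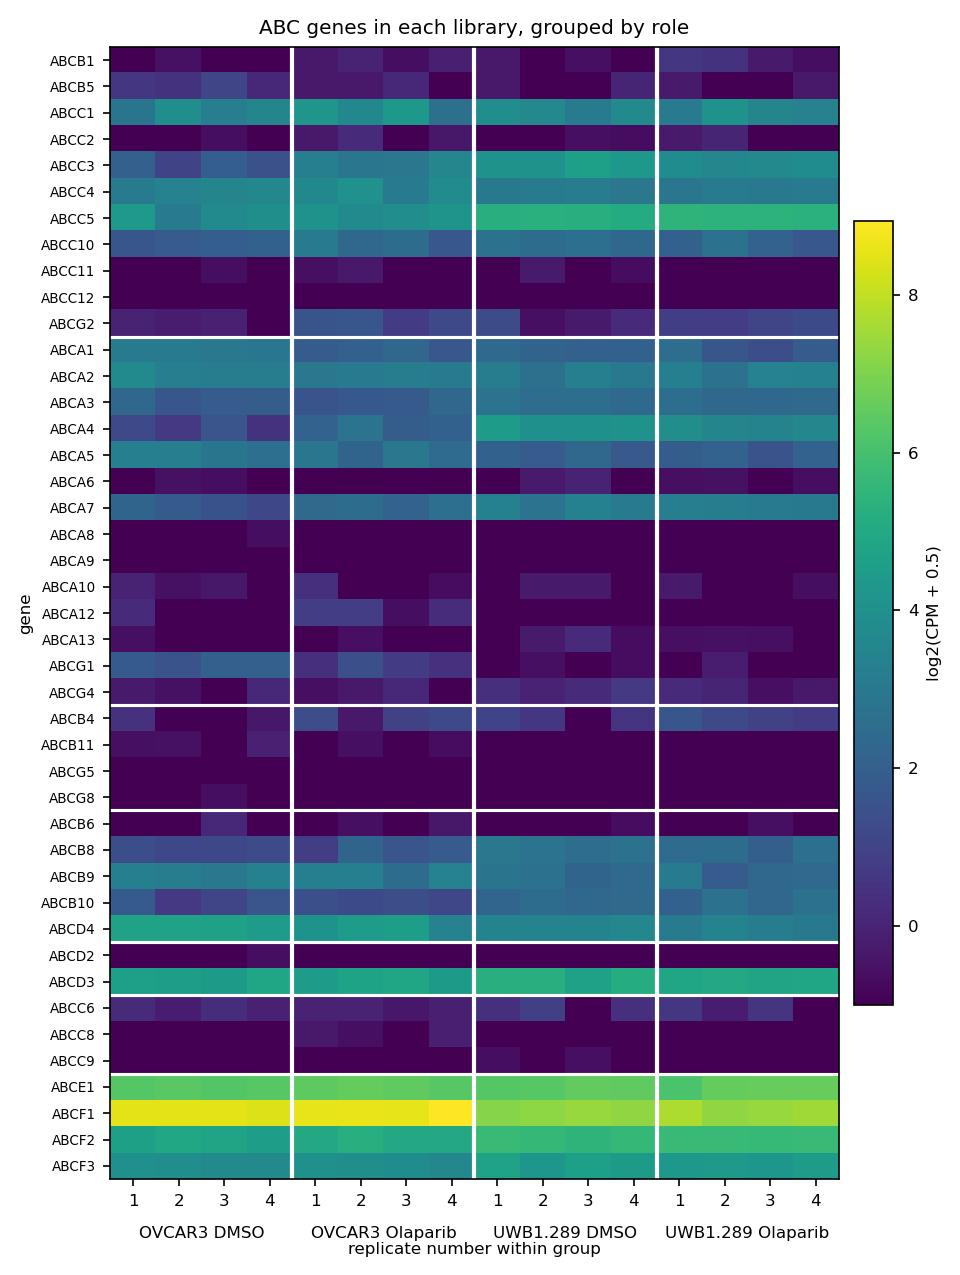
Level of the ABC genes reported by name (rows, grouped by role with white lines) in each of the 16 libraries (columns), as log2(CPM + 0.5). ABCF1 is the brightest row in all 4 groups, and the rows of ABCB1, ABCC2, ABCC11 and ABCC12 stay dark throughout.

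The most abundant members were the soluble ones. ABCF1, which takes part in translation initiation, was at 362.9 ± 16.1 CPM in OVCAR3 with DMSO and at 154.5 ± 12.4 CPM in UWB1.289. ABCE1, which recycles ribosomes, followed with 80.3 ± 2.85 and 86.0 ± 6.53 CPM, a difference that did not pass the test (adjusted p = 0.281, edgeR). Together ABCE1, ABCF1, ABCF2 and ABCF3 took 70.2% to 72.4% of all ABC counts in the OVCAR3 DMSO libraries and 52.9% to 57.5% in those of UWB1.289.

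Among the membrane transporters of OVCAR3, the lysosomal ABCD4 was at 24.7 ± 2.08, the peroxisomal ABCD3 at 24.2 ± 3.28 and ABCC5 at 13.9 ± 4.80 CPM. ABCD4 and ABCD3 lie within their spread. In UWB1.289 the levels were ABCC5 at 37.0 ± 2.25, ABCD3 at 33.8 ± 5.68, ABCC3 at 18.95 ± 3.33 and ABCA4 at 17.05 ± 2.78 CPM, where ABCC5 and ABCD3, and likewise ABCC3 and ABCA4, overlap between libraries. In OVCAR3 ABCC3 and ABCA4 were at 2.74 ± 0.981 and 1.58 ± 0.796 CPM.

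To compare the untreated lines, the 4 UWB1.289 DMSO libraries were tested against the 4 of OVCAR3 with edgeR over 13366 genes. A gene passed at an adjusted p below 0.1 (Benjamini-Hochberg over all genes tested), and was called differentially expressed if it also changed beyond 2-fold at a mean normalized count above 10. Of the 23 members with enough counts to be tested, 19 passed, which is 82.6% beside 79.9% of all genes. Of these, 12 were higher in UWB1.289 (52.2% beside 39.8%) and 7 lower (30.4% beside 40.1%). Beyond 2-fold, 11 members were differentially expressed (47.8%) beside 38.4% of all genes, 7 higher beside 18.7% of all genes and 4 lower beside 19.7%. For 17 members the libraries of the lines were fully apart (73.9%), beside 69.4% of all genes. The median log2 fold change of the 23 tested members was 0.48, and that of all genes was -0.02.

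Among those higher in UWB1.289 beyond 2-fold were ABCA4, ABCC3, ABCB8, ABCA7, ABCC5 and ABCB10. ABCA4, a flippase of retinoid lipids best known from photoreceptors, was at 15.4 to 21.2 CPM in the UWB1.289 libraries and 0.858 to 2.60 CPM in OVCAR3, a log2 difference of 3.40 ± 0.25 (SE, adjusted p = 3.9e-13, edgeR), or 10.6-fold. ABCC3 (MRP3), an exporter of glucuronides and bile salts, was at 16.5 to 23.6 CPM against 1.57 to 3.63 CPM, a log2 difference of 2.77 ± 0.22 (adjusted p = 1.63e-12, edgeR), or 6.82-fold. Neither pair of groups overlapped. ABCB8, a mitochondrial transporter, was higher by 1.72 ± 0.28 on the log2 scale. ABCC5 (MRP5), which exports cyclic nucleotides, was higher by 1.41 ± 0.16 with libraries at 33.9 to 39.1 CPM against 8.21 to 19.8 CPM.

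Lower in UWB1.289 beyond 2-fold were ABCG1, ABCF1, ABCD4 and ABCA5. ABCG1, which exports cholesterol to high-density lipoprotein, had 18, 14, 25 and 25 counts in the OVCAR3 DMSO libraries. In those of UWB1.289 it had 0, 1, 0 and 1. Its OVCAR3 mean was 6.91 times the floor of 3 counts per library, a ratio that leaves out the spread between libraries. ABCF1 was lower in UWB1.289 by 1.23 ± 0.07 on the log2 scale (adjusted p = 1.11e-15, edgeR) and ABCD4, which serves the lysosomal export of vitamin B12, by 1.18 ± 0.14. ABCA1, the cholesterol exporter that loads apolipoprotein A-I, differed by less, with a log2 difference of -0.89 ± 0.22 (adjusted p = 0.00074, edgeR).

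**Figure D2:**
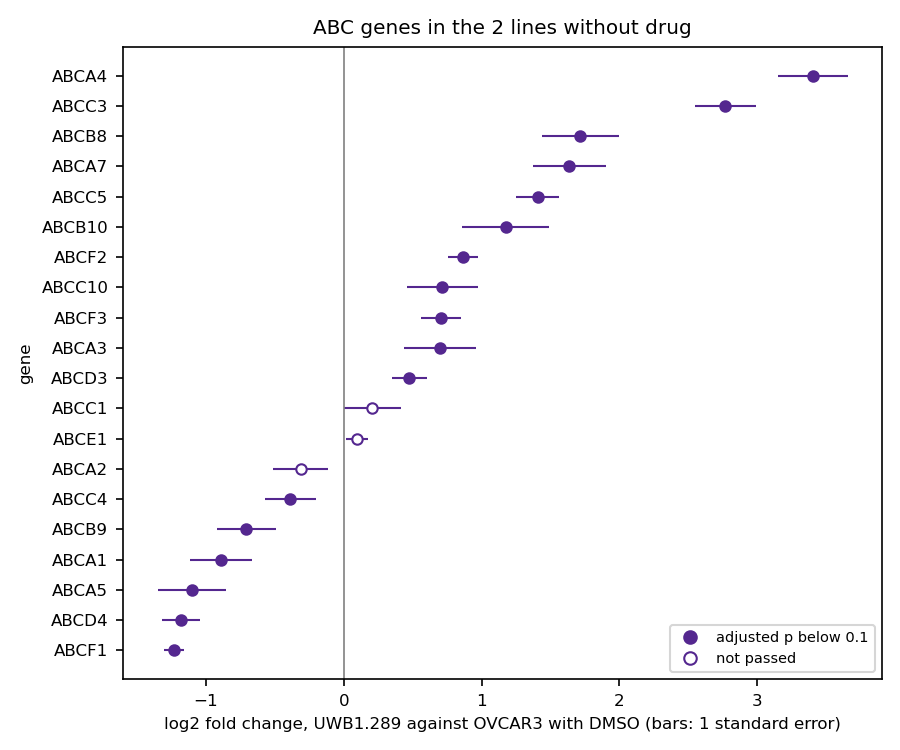
Log2 fold change of the tested ABC genes reported by name between UWB1.289 and OVCAR3 with DMSO (horizontal axis, points with 1 standard error, n = 4 libraries per line), with filled points at an adjusted p below 0.1. ABCG1 is left out because it is at the floor in UWB1.289, and ABCA4 and ABCC3 lie farthest to the right at 3.40 and 2.77.

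To ask whether olaparib changed these genes, treated and control libraries were compared within each line. In OVCAR3, ABCC3, ABCA4, ABCA7 and ABCF2 rose, and those that fell included ABCG1, ABCA1 and ABCD4. In UWB1.289 ABCC3 and ABCA4 fell and no member rose. Of the 23 members tested in OVCAR3, 8 passed (34.8%), beside 31.5% of all 13031 genes, 4 of them higher beside 15.5% and 4 lower beside 16% of all genes, and 4 were differentially expressed beyond 2-fold (17.4%), beside 5.23% of all genes. These 4 were ABCC3 and ABCA4, which rose beside 2.9% of all genes, and ABCA1 and ABCG1, which fell beside 2.33%. Treated and control libraries were fully apart for 7 of the 23 members (30.4%), beside 25.7% of all genes. The members' median log2 fold change was 0.14, and that of all genes -0.01.

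In UWB1.289, 2 of 22 tested members passed (9.09%), beside 13.9% of all 12748 genes. Both were lower, beside 6.1% of all genes, and 0 were higher, beside 7.77%. With edgeR and with DESeq2, 0 members were differentially expressed beyond 2-fold, beside 2.21% of all genes (1.93% higher and 0.282% lower), and at an unadjusted threshold of 0.05 in edgeR 3 of the 22 were called (13.6%), ABCF1 being the addition, beside 23.1% of all genes. Libraries were fully apart for 4 of the 22 (18.2%), beside 14.7%. The members' median log2 fold change was -0.07. With the replicate number as a block, 3 members passed in UWB1.289, though pairing by number is uncertain. ABCF1 was the addition, with a log2 fold change of 0.22 ± 0.09 and an adjusted p of 0.15 without the block (edgeR).

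**Figure D3:**
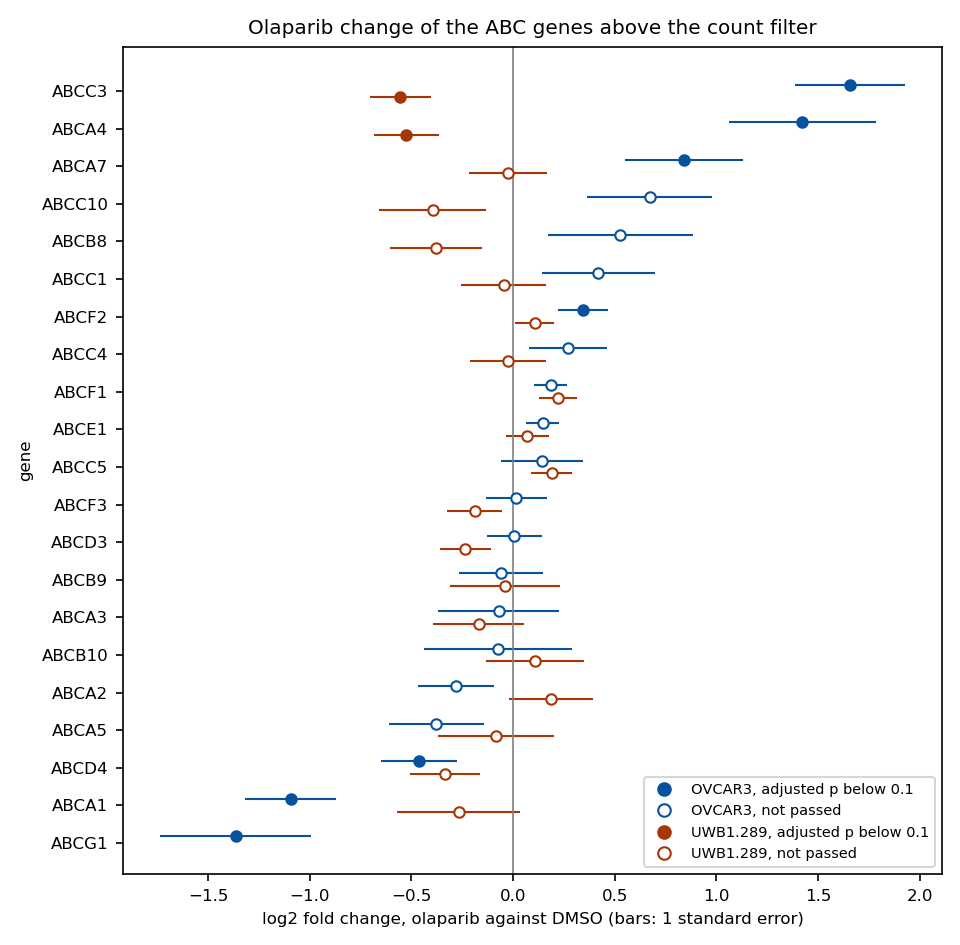
Log2 fold change with olaparib (horizontal axis, points with 1 standard error) of the ABC genes reported by name that passed the filter on low counts, in OVCAR3 (blue) and UWB1.289 (brown), from 4 against 4 libraries in each line. Filled points have an adjusted p below 0.1, and ABCC3 and ABCA4 are filled on opposite sides of 0 in the 2 lines.

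The drug exporter ABCB1 (chr7:87503017-87713323, hg38, minus strand) was nearly absent. Its counts were 0, 1, 0 and 0 in the OVCAR3 DMSO libraries and 2, 3, 1 and 3 with olaparib. In UWB1.289 they were 2, 0, 1 and 0 with DMSO and 6, 5, 2 and 1 with olaparib. Both OVCAR3 groups were at the floor, so no fold is given, and 1 read was worth 0.137 to 0.175 CPM in those libraries. Treated means were above control means in both lines, at 0.332 against 0.0437 CPM in OVCAR3 and 0.587 against 0.115 CPM in UWB1.289, but the groups met or overlapped in each. A two-sided exact permutation test gave p = 0.0571 in OVCAR3 (adjusted over 17 such tests, 0.194) and p = 0.0857 in UWB1.289 (adjusted, 0.208), where 4 against 4 libraries cannot give less than 0.0286. Without the filter on low counts, edgeR gave ABCB1 an adjusted p of 0.262 in OVCAR3 and 0.323 in UWB1.289. No test of ABCB1 passed in either line, at counts too low to say whether it changed. Reads from RUNDC3B, which overlaps ABCB1 in the annotation, cannot be told apart if strand was not used in counting.

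ABCG2 (chr4:88090150-88231628, minus strand), the breast cancer resistance protein, was low and higher with olaparib in OVCAR3. Its counts there were 3, 2, 3 and 0 with DMSO and 16, 17, 8 and 13 with olaparib. Every treated library exceeded every control library. The treated mean of 2.01 ± 0.694 CPM was 4.27 times the floor of 3 counts per library, a ratio that leaves out the spread of the treated libraries. The two-sided exact permutation test gave the smallest p it can, 0.0286, which is 0.194 adjusted over the 17 tests and did not pass. With 17 tests, a gene alone at this p could not pass after adjustment, so the adjusted value cannot decide. Without the filter on low counts, edgeR gave an adjusted p of 0.000432 over all genes, and a fit over all 16 libraries, in which ABCG2 passes the filter, called it too. In UWB1.289 the counts were 13, 1, 2 and 5 with DMSO and 8, 7, 10 and 12 with olaparib, so the groups overlapped (p = 0.171, exact permutation test, adjusted 0.291), and without DMSO replicate 1 the mean difference rose from 0.725 to 1.12 CPM. The difference between the lines in the ABCG2 change was -1.68 ± 0.85 on the log2 scale and did not pass (adjusted p = 0.256, edgeR).

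**Figure D4:**
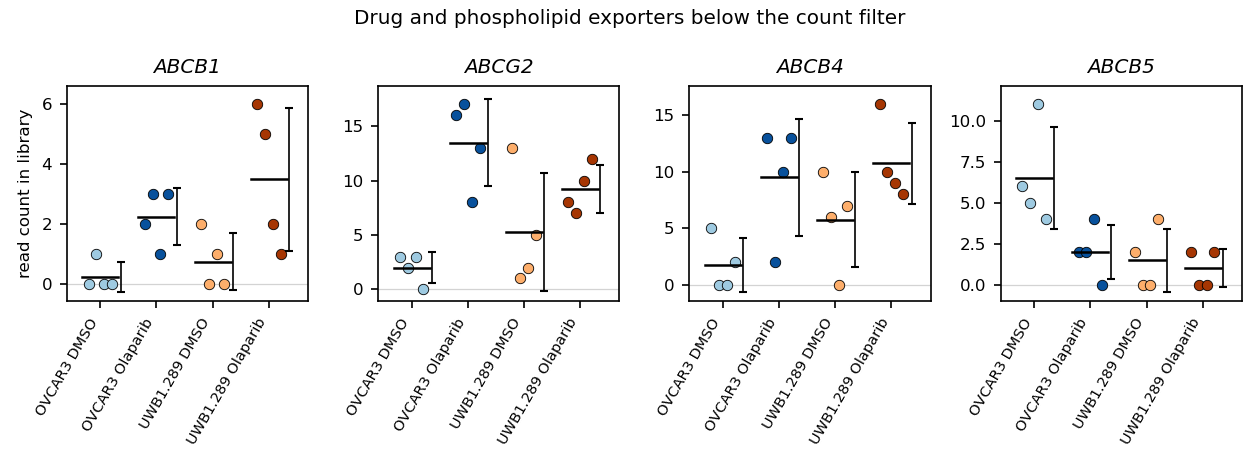
Read counts per library (vertical axis) of ABCB1, ABCG2, ABCB4 and ABCB5, 4 genes below the filter on low counts, with the mean as a line and the SD as a bar in each group of 4 libraries. ABCG2 in OVCAR3 lies between 8 and 17 counts with olaparib and between 0 and 3 with DMSO, and ABCB1 reaches at most 6 counts.

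ABCB4, the phosphatidylcholine exporter of bile canaliculi, lies next to ABCB1 at chr7:87401696-87480435 and was low too, though above ABCB1, with means of 1.38 CPM in OVCAR3 and 1.77 CPM in UWB1.289 with olaparib. It had 5, 0, 0 and 2 counts in OVCAR3 with DMSO and 13, 2, 10 and 13 with olaparib, and in UWB1.289 10, 6, 0 and 7 against 16, 10, 9 and 8. The groups overlapped in both lines (exact permutation p = 0.0571 and 0.0857, adjusted 0.194 and 0.208), while edgeR without the filter gave an adjusted p of 0.0135 in OVCAR3 and 0.35 in UWB1.289. Of 8 genes of the ABCB1 neighbourhood, ABCB4 among them, 6 could be tested in OVCAR3 and 5 in UWB1.289, ABCB4 in neither. None of those tested passed for olaparib in edgeR, beside 31.5% and 13.9% of all genes.

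ABCB5, a drug exporter related to ABCB1, went the other way in OVCAR3, from 6, 5, 11 and 4 counts with DMSO to 2, 2, 4 and 0 with olaparib. The groups met at 4 counts, but not in CPM (0.572 against 0.568), and the exact permutation p was 0.0286 (adjusted 0.194). Without the filter on low counts, edgeR gave ABCB5 an adjusted p of 0.138 in OVCAR3, which did not pass. ABCC2 (MRP2) had 0 or 1 count in every DMSO library of both lines. With olaparib it had 2, 4, 0 and 2 counts in OVCAR3 and 2, 3, 0 and 0 in UWB1.289. The exact permutation p in OVCAR3 was 0.143 (adjusted 0.27). Without the filter, edgeR gave ABCC2 an adjusted p of 0.303 in OVCAR3 and 0.622 in UWB1.289. ABCA12, the lipid transporter of keratinocytes, had 4, 0, 0 and 0 counts in OVCAR3 with DMSO and 8, 8, 1 and 5 with olaparib (exact permutation p = 0.0571, adjusted 0.194), and none in UWB1.289.

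Of the exporters with enough reads, ABCC3 (chr17:50634777-50692253, plus strand) changed most with olaparib. In OVCAR3 its level was 3.63, 1.57, 3.47 and 2.29 CPM with DMSO and 9.15, 7.01, 7.10 and 11.5 CPM with olaparib. All treated libraries were above all controls, with a log2 fold change of 1.66 ± 0.27 (adjusted p = 0.000123, edgeR), or 3.15-fold. In UWB1.289 it started higher, at 16.5, 16.5, 23.6 and 19.2 CPM, and was 13.8, 11.7, 12.2 and 13.8 CPM with olaparib. There all treated libraries were below all controls, and the log2 fold change was -0.55 ± 0.15 (adjusted p = 0.0209, edgeR). The difference between the 2 changes, UWB1.289 minus OVCAR3, was -2.21 ± 0.30 (adjusted p = 7.91e-06, edgeR, 16 libraries) and passed under all 20 alternatives run for it. The levels of the lines lay closer together with olaparib, at 8.69 ± 2.11 and 12.9 ± 1.09 CPM, than with DMSO.

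The other measured conjugate exporters did not pass in either line. ABCC1 (MRP1) was at 6.76, 14.2, 8.96 and 11.0 CPM in OVCAR3 with DMSO and at 17.5, 11.8, 19.3 and 5.88 CPM with olaparib, and its log2 fold change of 0.42 had a 95% interval from -0.12 to 0.96 (adjusted p = 0.294, edgeR). The treated libraries spanned the controls, Olaparib replicate 4 being lowest of all 8, and without it ABCC1 passed at 0.68 (adjusted p = 0.0089). ABCC10 (MRP7), which exports taxanes, was at 2.64 to 3.72 CPM with DMSO and 2.73 to 8.37 CPM with olaparib (log2 fold change 0.67, 95% interval 0.07 to 1.28, adjusted p = 0.122), and it too passed without Olaparib replicate 4 (0.89, adjusted p = 0.0189).

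ABCC4 (MRP4), an exporter of cyclic nucleotides and prostaglandins, had a log2 fold change of 0.27 (95% interval -0.11 to 0.65) in OVCAR3, which passed without Olaparib replicate 3 (0.44, adjusted p = 0.0849). For ABCC5 the value was 0.14 (-0.25 to 0.53). In UWB1.289 the intervals were -0.46 to 0.37 for ABCC1, -0.39 to 0.34 for ABCC4, -0.01 to 0.39 for ABCC5 and -0.91 to 0.12 for ABCC10. A change of 2-fold in either direction lies outside each of these 4 intervals. The difference between the lines did not pass for ABCC1, ABCC4, ABCC5 or ABCC10, of which ABCC10 had the largest, -1.07 ± 0.41 (adjusted p = 0.121, edgeR), and passed without OVCAR3 Olaparib replicate 4 (0.0342) or UWB1.289 Olaparib replicate 2 (0.0572). Reads of ABCC10 and DLK2, and of ABCC5 and its antisense gene ABCC5-AS1, overlap in the annotation.

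Among the lipid transporters, the cholesterol exporters ABCA1 and ABCG1 fell together in OVCAR3. ABCA1 (chr9:104781006-104928155, minus strand) was at 7.75, 7.86, 7.37 and 7.01 CPM with DMSO and 3.26, 3.58, 4.40 and 2.73 CPM with olaparib. The groups were well apart, and the log2 fold change was -1.09 ± 0.22 (adjusted p = 0.00122, edgeR), a 2.13-fold decrease. In UWB1.289 ABCA1 was at 4.81, 3.99, 3.66 and 3.69 CPM with DMSO and 5.44, 2.66, 2.08 and 3.21 CPM with olaparib, overlapping groups with a log2 fold change of -0.27 (95% interval -0.86 to 0.32, adjusted p = 0.644). The difference between the lines did not pass (0.83 ± 0.37, adjusted p = 0.191, edgeR).

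ABCA1 is a textbook target of the oxysterol receptors NR1H2 and NR1H3 (LXR beta and alpha), which bind its promoter as partners of RXRA. The 250 bases before its start in RefSeq (GRCh38.p14, chr9:104928156-104928405, shown 5' to 3' on the minus strand) are printed because this gene fell and its LXR element is well known. Capitals mark 3 GC boxes (GGGCGG), 1 E-box (CACGTG) and, as its reverse complement near the 3' end, 1 match to the LXR repeat AGGTTANNNNCGGTCA. These last letters are those of ABCA1's own known element, not a general LXR motif, so the match was fixed by the choice of letters.

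ABCA1 promoter: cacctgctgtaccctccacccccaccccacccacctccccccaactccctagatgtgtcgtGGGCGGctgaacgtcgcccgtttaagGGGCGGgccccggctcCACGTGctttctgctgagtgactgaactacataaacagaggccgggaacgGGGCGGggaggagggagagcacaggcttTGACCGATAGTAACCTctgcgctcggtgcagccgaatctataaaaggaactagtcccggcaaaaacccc

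Both strands were searched, and no motif overlapped another. Over the 35116 RefSeq promoter windows of 250 bases before the start, 42.6% hold the GC box, 6.34% the E-box and 0.00285% (1 window) the LXR letters, a share that says nothing of how common LXR sites are. Promoter windows were present for 35 of the 45 members, of which 18 hold a GC box and 4 an E-box. No such window was printed for ABCA4, ABCC3 or ABCG1. The receptors themselves were measured too. In OVCAR3 NR1H2 was at 16.01 ± 2.47 CPM with DMSO and 13.5 ± 2.79 CPM with olaparib, and NR1H3 at 4.65 ± 0.516 and 4.63 ± 0.205 CPM, and neither passed.

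ABCG1 (chr21:42199689-42297244, plus strand) was at 2.97, 2.45, 3.61 and 3.58 CPM in OVCAR3 with DMSO and 0.775, 2.18, 1.14 and 0.820 CPM with olaparib. All treated libraries were below all controls, Olaparib replicate 2 closest, and the log2 fold change was -1.36 ± 0.37 (adjusted p = 0.0104, edgeR), a 2.57-fold decrease. In UWB1.289 it stayed at the floor with olaparib, at 0, 2, 0 and 0 counts.

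ABCA4 (chr1:93992834-94121148, minus strand) moved as ABCC3 did. In OVCAR3 it was at 1.81, 1.05, 2.60 and 0.858 CPM with DMSO and 3.88, 6.38, 3.27 and 3.69 CPM with olaparib, non-overlapping groups with a log2 fold change of 1.42 ± 0.36 (adjusted p = 0.00671, edgeR). In UWB1.289 it was at 21.2, 15.5, 15.4 and 16.1 CPM with DMSO and 14.5, 11.0, 10.4 and 11.5 CPM with olaparib, again without overlap, and fell by 0.52 ± 0.16 on the log2 scale (adjusted p = 0.0411, edgeR). This second call was lost without UWB1.289 DMSO replicate 1 (-0.40, adjusted p = 0.167), the highest of the 4 controls, without Olaparib replicate 3 (-0.47, 0.118), and in the fit over all 16 libraries (adjusted p = 0.103). The difference between the changes was -1.94 ± 0.37 (adjusted p = 0.000737, edgeR) and passed under all 20 alternatives. ABCC3 and ABCA4 were the 2 of 25 members tested (8%) that passed this test of the difference, beside 10.9% of all 14243 genes. Both had the negative sign, beside 5.83% of all genes, while 0 had the positive one, beside 5.09%, and both were beyond 2-fold, beside 3.66% (1.66% negative and 2% positive).

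**Figure D5:**
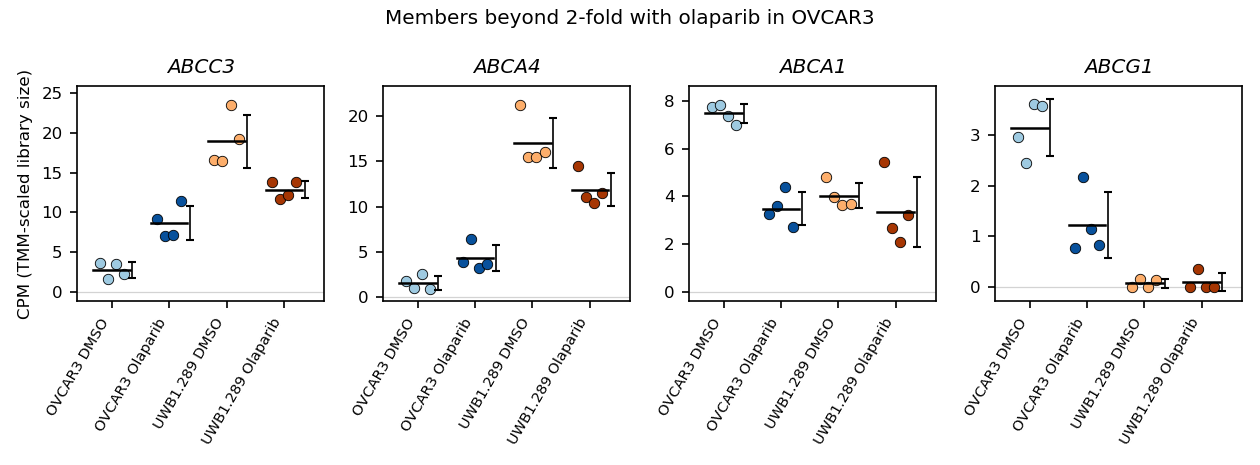
CPM per library (vertical axis, linear from 0) of the 4 ABC genes that changed beyond 2-fold with olaparib in OVCAR3, with the mean as a line and the SD as a bar in each group of 4. ABCC3 and ABCA4 go up in OVCAR3 and down in UWB1.289, ABCA1 goes down in OVCAR3, and ABCG1 is near 0 in UWB1.289.

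ABCA7, a phospholipid transporter related to ABCA1, also rose in OVCAR3. Its libraries were at 4.12, 2.97, 2.31 and 1.72 CPM with DMSO and 4.96, 5.14, 3.83 and 5.74 CPM with olaparib. DMSO replicate 1 lay above Olaparib replicate 3, and the log2 fold change was 0.84 ± 0.29 (adjusted p = 0.0409, edgeR). The call was lost without DMSO replicate 3 (adjusted p = 0.11) or 4 (0.136). In UWB1.289 its log2 fold change was -0.02 (95% interval -0.40 to 0.35), and the difference of -0.86 ± 0.33 did not pass (adjusted p = 0.119, edgeR). ABCA2, ABCA3 and ABCA5 did not pass in either line, with log2 fold changes from -0.38 to 0.19.

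Among the mitochondrial and lysosomal members, ABCD4 fell in OVCAR3. ABCD4 was at 25.7, 26.0, 25.4 and 21.6 CPM with DMSO and 16.4, 21.8, 23.4 and 9.98 CPM with olaparib (log2 fold change -0.46 ± 0.19, adjusted p = 0.0796, edgeR). Olaparib replicate 4 was far below the others, and without it the value was -0.26 (adjusted p = 0.178). ABCD4 was also lost without DMSO replicate 1, 2 or 3 or Olaparib replicate 1 (adjusted p = 0.154, 0.137, 0.155 and 0.167). ABCB8, ABCB9 and ABCB10 did not pass in either line, and ABCB6 was at 5 counts or fewer in each group in total.

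ABCD3, a peroxisomal transporter of fatty acids, did not pass with olaparib, at log2 fold changes of 0.01 ± 0.13 in OVCAR3 and -0.24 ± 0.13 in UWB1.289. Of the soluble members, ABCF2 rose in OVCAR3, from 24.2, 30.6, 27.45 and 22.6 CPM to 31.3, 38.5, 31.1 and 31.7 CPM (log2 fold change 0.34 ± 0.12, adjusted p = 0.0465, edgeR). Its lowest treated library was just above its highest control, and the call was lost without DMSO replicate 1 or 4 or Olaparib replicate 2 (adjusted p = 0.119, 0.151 and 0.173). ABCF1 was at 370.9, 370.1, 371.7 and 338.8 CPM in OVCAR3 with DMSO and at 382.9, 391.7, 381.9 and 488.9 CPM with olaparib, with a log2 fold change of 0.185 ± 0.08 that did not pass (adjusted p = 0.109, edgeR).

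Of the 3 ABC genes under other symbols, the peptide carrier genes TAP1 and TAP2 passed with olaparib in both lines. TAP1 and TAP2, which carry peptides into the endoplasmic reticulum for antigen presentation, rose by 0.69 ± 0.21 and 0.41 ± 0.17 on the log2 scale in OVCAR3 (adjusted p = 0.0217 and 0.0926, edgeR) and by 1.97 ± 0.15 and 0.71 ± 0.12 in UWB1.289 (2.76e-09 and 0.00025). The TAP2 call in OVCAR3 held in 6 of 13 alternatives: it was lost with DESeq2 (adjusted p = 0.278) and without any of 6 single libraries, namely DMSO replicates 1, 3 and 4 (0.36, 0.37 and 0.32 on the log2 scale) and Olaparib replicates 1, 2 and 3 (0.25, 0.36 and 0.43). TAP1 went from 5.98 ± 1.33 to 9.73 ± 1.95 CPM in OVCAR3 and from 5.97 ± 0.609 to 23.4 ± 1.47 CPM in UWB1.289, and its change was larger in UWB1.289 by 1.28 ± 0.26 (adjusted p = 0.00143). CFTR, the chloride channel of the family, had at most 1 count in any library.

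Of 22 transcription factors known to act on ABC genes, 16 were tested in OVCAR3, where 3 rose and 5 fell, and 15 in UWB1.289, where 1 rose and 1 fell, beside 31.5% and 13.9% of all genes that passed in either direction. In OVCAR3 the sterol regulators SREBF1 and SREBF2 fell (2.01-fold and 1.34-fold lower, adjusted p = 0.000228 and 0.0108, edgeR), and the vitamin D receptor VDR rose by 0.73 ± 0.11. SREBF2 fell in UWB1.289 as well (-0.45 ± 0.11, adjusted p = 0.0117). NFE2L2, the oxidative stress factor NRF2 that acts on ABCC genes, moved in opposite directions, -0.22 ± 0.08 in OVCAR3 and 0.27 ± 0.09 in UWB1.289 (adjusted p = 0.0438 and 0.0652), with a difference of 0.50 ± 0.12 (adjusted p = 0.00835, edgeR). The OVCAR3 call was lost in 4 alternatives and the UWB1.289 call in 5, and the difference passed in all 20. NR1I2 (PXR), the xenobiotic receptor that acts on ABCB1, had at most 4 counts in any library. AHR, the dioxin receptor that acts on ABCG2, had no count in UWB1.289 and 15 to 20 in OVCAR3 with DMSO. Its OVCAR3 mean was 6.17 times the floor, a ratio that leaves out the spread between libraries.

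Uptake carriers and conjugating enzymes share substrates with these exporters. Of 28 carriers of the SLC families, 13 were tested in OVCAR3 (3 rose and 3 fell) and 9 in UWB1.289 (3 rose and 1 fell), beside the same 31.5% and 13.9% of all genes. Of these calls, SLCO4C1 in OVCAR3 held in 9 of 13 alternatives, and in UWB1.289 SLC29A2 held in 9 and SLC22A5 in 11. The organic anion carrier SLCO4A1 rose from 2.63 ± 0.565 to 8.21 ± 2.68 CPM in OVCAR3 (log2 fold change 1.64 ± 0.27, adjusted p = 0.000161, edgeR), and SLCO3A1 rose in UWB1.289 by 1.05 ± 0.14 (adjusted p = 1.72e-05). SLC47A1, an exporter of organic cations, had at most 10 counts in any library. Of 20 glutathione genes in the table, 15 were tested in each line, 3 rising and 4 falling in OVCAR3 and 1 rising and 3 falling in UWB1.289, again beside 31.5% and 13.9% of all genes. Of 13 alternatives, GSTA4 in OVCAR3 held in 10, and in UWB1.289 GSTO1 held in 4, GSTO2 in 7 and GSTZ1 in 10. Between the lines with DMSO, GCLM, a subunit of the enzyme that starts glutathione synthesis, was higher in UWB1.289 by 2.38 ± 0.10 on the log2 scale (85.4 ± 4.36 against 16.45 ± 2.23 CPM) and the transferase GSTO2 by 3.03 ± 0.18.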

How the data were processed

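The authors prepared QuantSeq 3' mRNA libraries from OVCAR3 and UWB1.289, removed adapters and poor bases with BBDuk, mapped to the hg38 genome by 2-pass STAR 2.7.9a, and assigned reads to GENCODE release 38 genes by featureCounts 2.0.0. The deposited values are raw, unnormalized counts per gene. Whether counting used strand is not given in the sources used here. Coordinates come from GENCODE release 44 on the same build, and promoter sequence from RefSeq.

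All fits ran over the whole table in R 4.3.3 with edgeR 4.0.16 (TMM, filterByExpr with a minimum count of 10, quasi-likelihood F test, Benjamini-Hochberg adjustment). Olaparib was compared with DMSO within each line (8 libraries), the untreated lines with each other, and the 2 olaparib changes in a fit of 16 libraries. SEs were taken from each estimate and its F statistic, and 95% intervals cover 1.96 SEs. The comparisons share the DMSO libraries. Members that the filter removed in a line and that exceeded 3 counts in a library were compared by two-sided exact permutation tests on CPM (scipy 1.17.1). ABCB1 and ABCG2 were included whatever their counts, giving 17 tests in all, a test added after the data were seen. A gene alone at the smallest p this test can give could not pass after adjustment over 17 tests. Counts of 3 per library served as the floor, and floors cover counting error only, while the intervals also hold the spread between libraries. P-values measure the spread between the 4 libraries of a group.

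The members and lists were chosen with earlier results of these data known. ABCB1 and ABCG2 are given in every library, and full statistics for members that passed an olaparib test or the test of the difference and for ABCA1, ABCC1, ABCC2, ABCC3, ABCC4, ABCC5 and ABCC10. From the lists the text names fixed genes and up to 4 per comparison with the largest change. ABCA12, ABCB4 and ABCB5 are named as members, and their detail was added after their values were seen.

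Replicate numbers in the labels were checked for pairing by correlating deviations from group means over 8792 genes. Libraries of the same number correlated at 0.148 to 0.245 in UWB1.289, at 0.0493 to 0.175 in OVCAR3 and at -0.0109 to 0.0435 between lines. Those of different numbers correlated at -0.237 to 0.182 in UWB1.289 and at -0.238 to 0.16 in OVCAR3. The ranges overlap, so pairing is uncertain in both lines, and the main fits used none. Alternatives were DESeq2 1.42.0, its size factors, no filter, all 16 libraries in one fit, an adjusted p below 0.05, the replicate number as a block and leaving out each library in turn. Some members are counted but not reported here by name. The scripts were tested on simulated data.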

Additional observations from a re-analysis of the deposited data

Results flagged for a closer look

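Of 95 groups of 4 libraries examined, 9 held a library whose gap to the nearest of the others exceeded Dixon's critical share of the group's range, where chance flags about 1 in 20, or 4.75. ABCF1 was flagged in both OVCAR3 groups, at 338.8 CPM in DMSO replicate 4 (others 370.1 to 371.7) and at 488.9 CPM in Olaparib replicate 4 (others 381.9 to 391.7). ABCD4 was flagged at 21.6 CPM in OVCAR3 DMSO replicate 4 (others 25.4 to 26.0) and at 11.7 CPM in UWB1.289 DMSO replicate 4 (others 10.5 to 10.7). ABCA4 stood at 21.2 CPM in UWB1.289 DMSO replicate 1 (others 15.4 to 16.1), the library without which its decrease did not pass. ABCA2 stood at 12.9 CPM in OVCAR3 DMSO replicate 1 (others 8.58 to 8.91) and at 6.04 CPM in UWB1.289 Olaparib replicate 2 (others 9.39 to 10.1). ABCE1 was at 69.85 CPM in UWB1.289 Olaparib replicate 1 (others 94.4 to 98.1), and ABCF2 at 38.5 CPM in OVCAR3 Olaparib replicate 2 (others 31.1 to 31.7).

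The olaparib change differed between the lines, by the edgeR test of the difference (UWB1.289 minus OVCAR3, log2 scale), for ABCC3 (-2.21) and ABCA4 (-1.94), both of which rose in OVCAR3 and fell in UWB1.289. Among the followed lists it differed for TAP1 (1.28), for the carriers SLC22A5 (1.27), SLCO3A1 (1.25), SLCO4A1 (-1.32) and SLC29A2 (0.44), for the regulators VDR (-0.46) and NFE2L2 (0.50), and for the glutathione genes GCLM (-0.41) and GSTO1 (-0.48). Of these, the adjusted p was 0.0598 for SLC22A5 and 0.0867 for GCLM (edgeR). Of 20 alternatives, the GCLM call held in only 8, that of SLC22A5 in 16, SLC29A2 in 17 and VDR in 19.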

How the results depend on the processing

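With 4 libraries a group at these depths, members under about 10 counts per library were mostly removed by the filter on low counts and not tested by edgeR with it. DESeq2 called the same members as edgeR in OVCAR3, UWB1.289 and between the lines (8, 2 and 19). The count of members changed by olaparib in UWB1.289 was 2 and became 1 in the fit over all 16 libraries, where more genes enter and the spread is shared, and it ranged from 1 to 3 when single libraries were left out. It was 1 without UWB1.289 DMSO replicate 1 and 1 without UWB1.289 Olaparib replicate 3, and ABCA4 was the member lost in each. In OVCAR3 the count of 8 ranged from 7 to 11 without single libraries and from 6 to 10 under the other settings, and without the filter ABCA12, ABCB4 and ABCG2 were gained. Between the lines 19 ranged from 18 to 20 without single libraries and from 18 to 21 under the other settings. Members expressed with DMSO ranged from 23 to 24 in OVCAR3 and 22 to 23 in UWB1.289 without single libraries, and from 21 to 25 and 22 to 26 under the other settings. The replicate block left the counts at 8 in OVCAR3, 19 between the lines and 2 for the difference. It gave 3 in UWB1.289 and changed no other call there. Whether libraries of the same number belong together is uncertain in both lines.

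Signs turned only in values that did not pass. NR1H3 in OVCAR3 was 0.00597 with DESeq2, 0.00603 with its size factors and 0.00104 with the replicate block, and ranged from -0.0627 to 0.0561 without single libraries. Without single libraries ABCC5 ranged from -0.0349 to 0.35 in OVCAR3 and its difference between the lines from -0.16 to 0.22, ABCC1 in UWB1.289 from -0.27 to 0.0800, and ABCC4 in UWB1.289 from -0.0746 to 0.0238. The causes were not tested. The ABCG2 difference in OVCAR3 stayed between 1.48 and 1.98 CPM without single libraries, where 3 against 4 cannot give a p below 0.0571.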

Other observations

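Summed over the members other than ABCE1, ABCF1, ABCF2 and ABCF3, the ABC transporters were at 186.2 to 207.8 CPM in the OVCAR3 DMSO libraries and 236.7 to 265.4 CPM in those of UWB1.289, without overlap. With olaparib the sums were 176.5 to 202.7 CPM in OVCAR3 and 216.9 to 235.6 CPM in UWB1.289, where every treated library lay below every control. ABCF1 alone took 61.8% of all ABC counts in OVCAR3 Olaparib replicate 4, against 52.8% to 53.6% in the other 3 treated libraries. Members at their lowest level of the group in that library included ABCD4, ABCC1, ABCC10, ABCA1, ABCB10, ABCD3, ABCE1 and ABCF3. The same library had the highest ABCC3, ABCC5, ABCA7, ABCA3 and ABCB9 levels of its group.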
